A study of Homo sapiens with 12 samples.

Results

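The response of cells labelled as a human liver cancer line to a low dose of acriflavine was described from mRNA sequencing of 8 libraries, 4 from cells kept in 2.5 µM acriflavine for 24 h and 4 from control cells. They are 8 of the 12 libraries of the study, the other 4 coming from cells in 5 µM acriflavine, and were chosen by their treatment label alone. Acriflavine, a blend of acridine dyes, slides between the base pairs of DNA. The study's title names the epithelial-to-mesenchymal transition (EMT), the loss of junctions and gain of mobility by epithelial cells. The cells are labelled HepG2, a hepatoblastoma line, while the sample descriptions name HepG2S1, a derivative selected for months in rising doses of the kinase inhibitor sorafenib, which all groups share. Controls are called untreated in the design text, and the treatment protocol speaks of vehicle (DMSO). The design text calls the 4 libraries of a group biological replicates, but nothing says whether they came from separate flasks, so p-values measure the spread between these libraries.

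The control libraries held 11891849 to 14024568 counts each and the 2.5 µM libraries 13095641 to 15115510. Log2 CPM values correlated at 0.9917 to 0.9938 (Pearson's r across genes) between control libraries, at 0.9928 to 0.9943 between 2.5 µM libraries and at 0.9672 to 0.972 across the groups. The defining hepatocyte markers were near 0: albumin (ALB) had 0 counts in all 8 libraries and alpha-fetoprotein (AFP) had 0 in the controls and 1 at 2.5 µM, and 8 such markers (APOA1, TTR, SERPINA1 and HNF4A among them) summed to 0.586 to 1.01 CPM (counts scaled to library size, TMM-adjusted) in the controls and 0.351 to 0.924 CPM at 2.5 µM. Other genes that the liver also uses were present, with control means (± SD, n = 4) of 2185 ± 44.98 CPM for CPS1, 677 ± 34.6 CPM for C3 and 125 ± 8.58 CPM for ASS1. Epithelial markers (EPCAM, KRT8, KRT18, CDH1) summed to 1780 to 2240 CPM in the controls and 1870 to 2160 CPM at 2.5 µM. Nearly all of this came from KRT8 and KRT18, as the control means of EPCAM and CDH1 were 3.57 and 0.359 CPM. Cholangiocyte markers, KRT7 above all, summed to 3620 to 4070 and 3520 to 3980 CPM, while SOX9 and CFTR had control means of 1.73 and 0.0394 CPM. The 5 fibroblast markers examined summed to 618 to 768 CPM in the controls and 548 to 604 CPM at 2.5 µM, mostly from DCN and LUM, while COL1A2 had 0 counts in the controls. PECAM1, CDH5, VWF and KDR, of endothelial cells, summed to at most 0.403 CPM, and PTPRC, CD3E, CD14 and HBB, of blood cells, to at most 1.23 CPM in the libraries of both groups, with PECAM1, KDR and CD3E at 0. ENG, which endothelial and other cells share, stood at 51.2 ± 3.097 CPM in the controls and 39.6 ± 2.44 CPM at 2.5 µM. HepG2 is known as a line that makes albumin and alpha-fetoprotein, so these values go against the label, and whether the cells are HepG2 was not tested. They are called the labelled line here.

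Several pathways recur below. In the integrated stress response, cells short of amino acids or under other stress make more of the transcription factor ATF4, which switches on amino acid synthesis, amino acid uptake and tRNA charging. Mitochondria carry a small circular genome that is transcribed on both strands into long RNAs, which are then cut into rRNAs, tRNAs and mRNAs for the respiratory chain. Acridine and other intercalating dyes are known to gather in mitochondria and to bind this DNA. Acriflavine is best known as an inhibitor of hypoxia-inducible factor 1 (HIF-1), whose alpha and beta subunits it keeps apart.

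Acriflavine at 2.5 µM moved many genes by small amounts. Of 16839 genes tested, 9957 (59.1%) passed an adjusted p of 0.05 (edgeR's quasi-likelihood test with Benjamini-Hochberg adjustment), 5165 higher (30.7%) and 4792 lower (28.5%). Fewer, 1700 genes (10.1%), also changed at least 2-fold, 1070 higher (6.35%) and 630 lower (3.74%). A fit of the 8 libraries alone, with 15766 genes tested, gave 1294 such genes. Among the 5165 genes that rose, 14.6% did so by 2 to 4-fold and 6.16% by 4-fold or more. Among those that fell, 11.2% did so by 2 to 4-fold and 1.98% by 4-fold or more. In 8502 genes (50.5%) the 4 control and the 4 treated values did not overlap, 4388 higher (26.1%) and 4114 lower (24.4%). The median log2 fold change of all genes tested was 0.019. Because these are shares of each library's RNA from bulk cultures, fewer cells of a kind and less RNA per cell cannot be told apart.

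The response differed in its make-up between gene classes. Of 1429 long noncoding RNA genes, 39.8% rose and 14.6% fell, against 33.6% and 30.9% of 12185 protein-coding genes. Of 2861 pseudogenes, 13.6% rose and 25.7% fell. Of the 1676 genes with a mean under 1 CPM, 33.7% rose and 6.56% fell. At the other end, 13 of the 53 genes at 1000 CPM or more rose and 28 fell. The span of nuclear protein-coding genes went with small differences: 30.2% of those under 5 kb and 35.1% of those of 200 kb or more rose. The low-value filter can keep a gene for its level at 2.5 or 5 µM alone, so these shares describe genes that passed it.

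**Figure D1:**
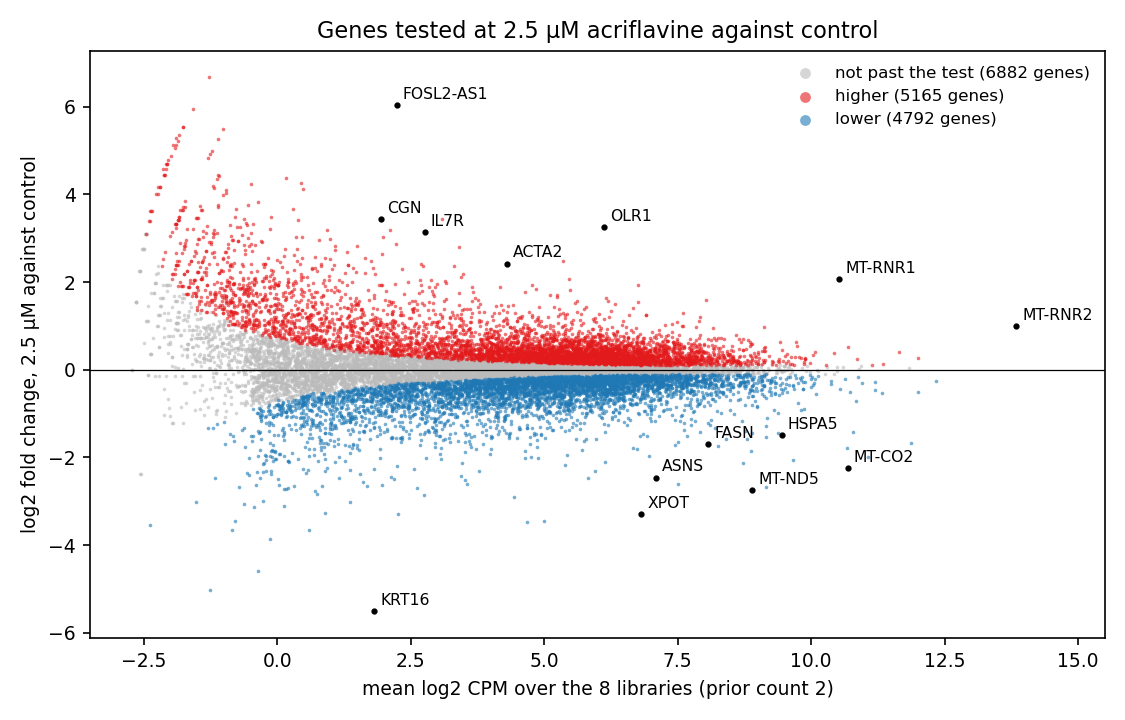
Log2 fold change at 2.5 µM acriflavine against control (vertical axis) for each of 16839 genes tested, against its mean log2 CPM over the 8 libraries (horizontal axis). Red points passed the test higher (5165 genes), blue points lower (4792 genes) and grey points did not pass it. FOSL2-AS1 and OLR1 stand far above 0, and KRT16, XPOT and MT-ND5 far below.

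The largest fall among genes with a mean log2 CPM of at least 1 was in KRT16, a keratin of stressed and fast-dividing epithelia. It stood at 23.4, 21.8, 23.5 and 15.2 CPM in the controls and at 0.454, 0.281, 0.462 and 0.605 CPM at 2.5 µM, a log2 fold change of -5.51 ± 0.20 (SE; adjusted p = 4.66e-21). XPOT, the exportin that carries tRNAs out of the nucleus, was also among the 10 largest falls. Its control values were 354, 369, 349 and 342 CPM and its treated values 36.6, 37.2, 34.5 and 35.7 CPM, which gives -3.29 ± 0.056 (adjusted p = 6.96e-31). All 4 treated libraries lay about 9.81-fold under the controls, and the gap was far larger than the spread in each group. XPOTP1, a pseudogene of XPOT whose reads can be mistaken for those of its parent, fell too (-3.45 ± 0.077). INHBE, an activin subunit gene of the stress response, had 15.8, 12.1, 14.9 and 13.9 CPM in the controls and 1.59, 1.196, 1.54 and 1.48 CPM at 2.5 µM (-3.28 ± 0.15, adjusted p = 3.89e-19). The other large falls were in AC073136.1 (-3.48), KLHL35 (-3.02), MTND2P28 (-2.895), a nuclear copy of mitochondrial sequence, ALDH1L2 (-2.85), MT-ND5 (-2.75) and GNAO1 (-2.696), a G protein alpha subunit.

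Among the rises, FOSL2-AS1 went furthest. This antisense RNA of the AP-1 gene FOSL2 had 0.469, 0.586, 0.537 and 0.423 CPM in the controls and 33.9, 34.6, 34.2 and 32.5 CPM at 2.5 µM (6.04 ± 0.14, adjusted p = 4.67e-27). FOSL2 itself was at 399 ± 12.1 CPM (mean ± SD, n = 4) and 427 ± 13.3 CPM and did not pass the test (log2 fold change 0.098 ± 0.043, adjusted p = 0.0529). It passed without replicate 2 at 2.5 µM (0.12, adjusted p = 0.0364) and, with adjusted p-values of 0.00272, 0.04 and 0.0376, under scaling by library size, with limma-voom and with the 8 libraries alone. The strand setting of the counting is not given in the sources used here, so whether some reads of 1 of these genes were counted for the other is not known. OLR1, a scavenger receptor for oxidised lipoprotein, rose from 16.6, 24.5, 17.7 and 32.4 CPM to 219, 196, 245 and 213 CPM (3.26 ± 0.16, adjusted p = 1.85e-08). CGN, the tight junction protein cingulin, rose from 1.13 ± 0.548 to 12.2 ± 1.599 CPM (3.43 ± 0.17). Surface proteins of immune signalling stood beside them: CD70, a TNF family ligand, changed by 3.18 and IL7R, the interleukin 7 receptor, by 3.14. The remaining genes of the 10 largest rises were AC097478.1 (3.45), TMEM52B (3.03), the long noncoding RNA HOTAIR (2.87), ANKLE1 (2.82) and CLSTN2 (2.81).

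A few genes went from silence to low counts. In all, 12 genes had 0 counts in the 4 controls and at least 20 counts over the 4 treated libraries, and 2 genes showed the reverse. COL20A1, a collagen chain, had 0 counts in the controls and 14, 13, 13 and 13 at 2.5 µM, at least 16.3-fold higher when a floor of 3 counts over the control group is used. STPG3 went from 0 to 41 counts summed over 4 libraries (at least 12.6-fold higher) and GNAT2 from 0 to 33 (at least 10.1-fold higher), and both were too low to enter the test. MMP14, a membrane-bound matrix protease, had 1 count in the controls and 52 at 2.5 µM, a ratio of 47.9 with a 95% counting interval of 8.23 to 1930. These bounds and intervals cover counting error only.

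Read against the 30.7% and 28.5% of all genes, gene groups fell into 3 kinds: those mostly lower, those mostly higher, and those close to the background. The groups were lists of known pathway members, chosen with earlier results of these data known. Some lists share members: the 1103 matched entries stand for 1055 distinct genes. Where a member was not among the largest changes, the preset genes or the 3 smallest p of its list, as with ASNS and CHAC1, it was chosen after its values were seen.

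**Figure D2:**
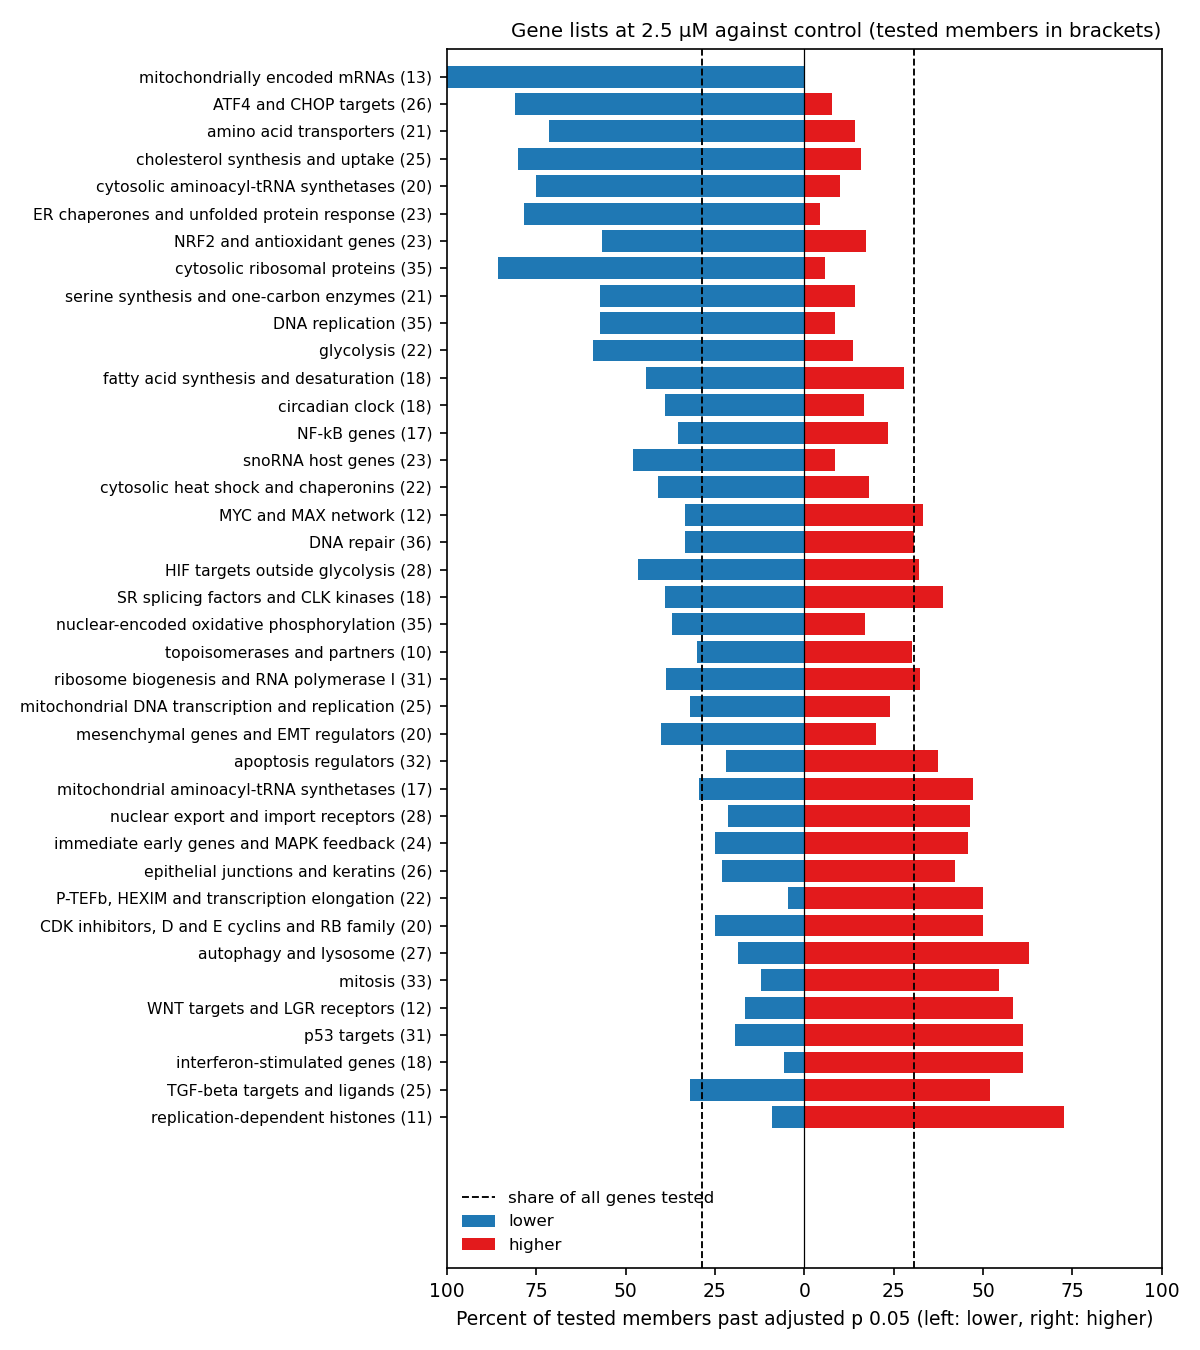
Share of tested members that passed an adjusted p of 0.05 at 2.5 µM against control, lower to the left in blue and higher to the right in red, for each gene list with at least 10 tested members, ordered by median log2 fold change. Dashed lines mark the shares of all genes tested, 28.5% lower and 30.7% higher. Mitochondrial mRNAs, ATF4 targets, cholesterol genes and ribosomal proteins extend far to the left. Histones (11 tested of 34 listed), p53 targets and lysosomal genes extend to the right.

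Every mRNA of the mitochondrial genome fell, while both of its rRNAs rose. All 13 mitochondrial mRNAs passed the test, and none of them overlapped between the groups. Their median log2 fold change was -1.996, from -1.43 for MT-ATP6 (ATP synthase subunit 6) to -2.75 for MT-ND5. MT-ND5, a complex I subunit, had 1346, 1225, 1302 and 1087 CPM in the controls and 195, 155, 204 and 184 CPM at 2.5 µM (-2.75 ± 0.089, adjusted p = 1.51e-12). MT-CO2, subunit 2 of cytochrome c oxidase, had 3469.9, 3546, 3631 and 3697 CPM in the controls and 785, 653, 831 and 760.4 CPM at 2.5 µM (-2.24 ± 0.054, adjusted p = 5.49e-26). MT-ND6 is the one mRNA read from the light strand of the mitochondrial circle. Its values were 26.6, 31.1, 27.7 and 32.9 CPM in the controls and 7.796, 8.93, 8.32 and 8.67 CPM with drug (-1.81 ± 0.097). Counts assigned to mRNAs of both strands were thus lower. As the strand setting of the counting is not given, whether reads of the opposite strand were counted for MT-ND6 is not known.

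The 12S rRNA, MT-RNR1, moved the opposite way, from 742, 698, 809 and 641 CPM to 3467, 2238, 3302 and 3125 CPM (2.07 ± 0.15, adjusted p = 8.17e-07). The 16S rRNA, MT-RNR2, went from 11480.4, 9960.3, 11803 and 8493 CPM to 23261, 17354, 22040.2 and 20404 CPM (0.99 ± 0.12, adjusted p = 3.37e-05). The spread of both rRNAs within a group was wide for these data, yet the groups did not overlap. As shares of all counts, the 13 mRNAs made up 2.44% ± 0.0568 (SD, n = 4) of the control libraries and 0.653% ± 0.0512 of the 2.5 µM libraries. The 2 rRNAs made up 1.07% ± 0.148 and 2.35% ± 0.298. Both differences gave an exact permutation p of 0.0286, the smallest that 4 against 4 libraries allow (2-sided, adjusted p = 0.0381 over 4 library measures). Poly-A RNA was selected before sequencing, and how much of the rRNA counted here carried a poly-A stretch was not tested.

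**Figure D3:**
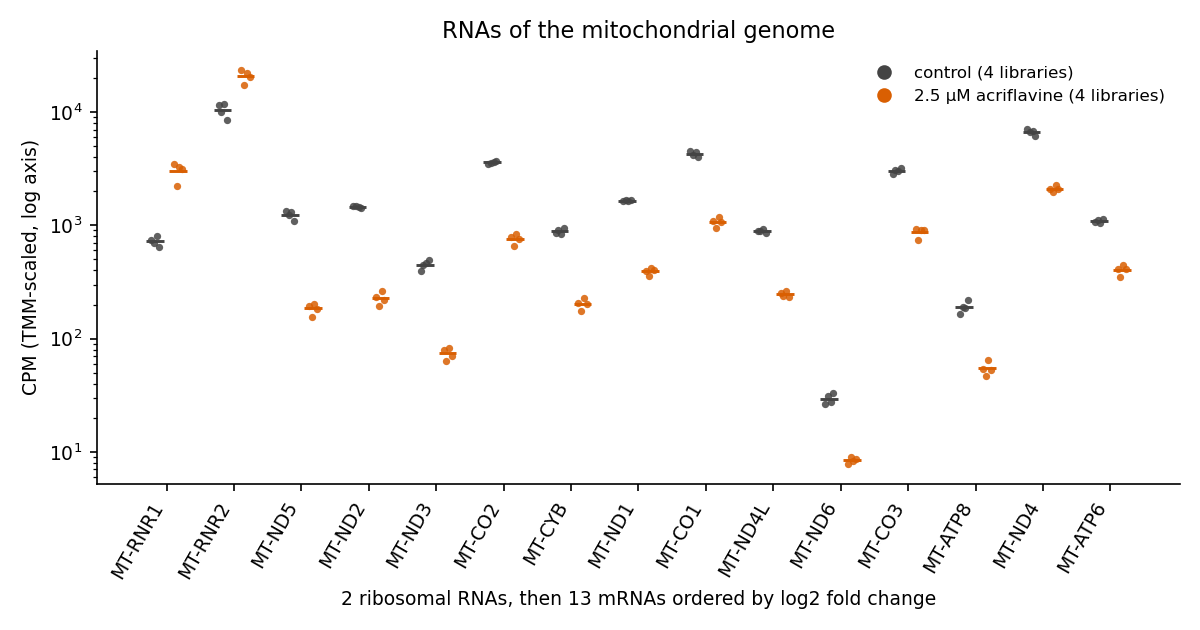
CPM (log axis) of the 2 rRNAs and 13 mRNAs of the mitochondrial genome in the 4 control libraries (grey) and the 4 libraries at 2.5 µM acriflavine (orange), with points spread sideways for legibility. Each point is a library and each bar a group mean. All 13 mRNAs were lower with drug and both rRNAs higher, with no overlap between groups.

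The nuclear genes that serve this genome showed no such common direction. Of 25 tested genes for mitochondrial DNA transcription and replication, 6 rose and 8 fell (median -0.0077). TOP1MT, the mitochondrial topoisomerase, fell from 29.5 ± 1.22 to 15.1 ± 2.56 CPM (-0.97 ± 0.093, adjusted p = 7.13e-11). FASTKD2, an RNA-binding protein of the mitochondrial matrix, fell by 0.65 on the log2 scale. PPARGC1A, a coactivator that drives mitochondrial gene expression, rose from 11.1 ± 0.594 to 24.4 ± 2.13 CPM (1.13 ± 0.088). TFAM, which packs and transcribes the mitochondrial genome, changed by 0.44 and POLRMT, its RNA polymerase, by -0.35. Of 35 nuclear genes of the respiratory chain, 6 rose, 13 fell and 16 did not pass the test, with a median of -0.043. NDUFB10 (-0.44) and UQCRC2 (-0.37) fell, both by far less than the mitochondrial mRNAs. Mitochondrial aminoacyl-tRNA synthetases split 8 higher to 5 lower of 17, with AARS2 (-0.86) the furthest down.

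Targets of ATF4 and its partner CHOP fell together. Of 26 tested members, 21 fell, 2 rose and 3 did not pass the test, and the median log2 fold change was -0.97 against 0.019 over all genes. ATF4 itself stood at 409, 398, 423 and 405 CPM in the controls and 174, 191, 166 and 175 CPM at 2.5 µM (-1.21 ± 0.049, adjusted p = 2.29e-20). ASNS, asparagine synthetase, had 303, 298, 363 and 320.4 CPM and then 59.3, 60.9, 52.7 and 60.2 CPM (-2.46 ± 0.074, adjusted p = 4.01e-17). CHAC1, which breaks down glutathione, fell from 28.7 ± 2.87 to 4.72 ± 1.03 CPM (-2.604 ± 0.12). TRIB3, a pseudokinase that feeds back on ATF4, changed by -1.43, and DDIT4, an inhibitor of mTORC1, by -1.54. The gene of CHOP, DDIT3, fell by 0.76 on the log2 scale. ATF3, a factor of the same bZIP family and itself a target of ATF4, went the other way, from 23.4, 27.5, 28.6 and 26.2 CPM to 52.3, 56.6, 55.4 and 56.3 CPM (1.06 ± 0.069, adjusted p = 6.74e-15). PPP1R15A, which lets translation restart after stress, also rose (0.46 ± 0.055). VLDLR, CEBPB and STC2 did not pass the test.

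**Figure D4:**
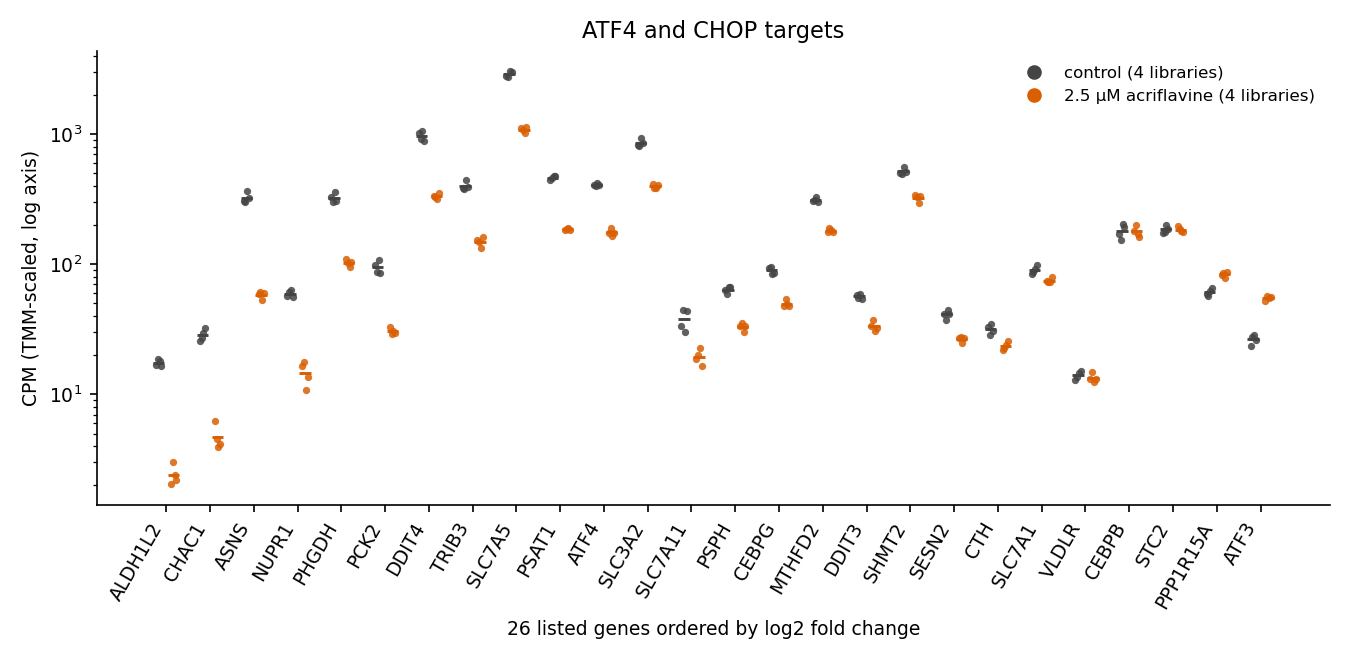
CPM (log axis) of the 26 ATF4 and CHOP targets in the 4 control libraries (grey) and the 4 libraries at 2.5 µM acriflavine (orange), ordered by log2 fold change, with points spread sideways for legibility. Each point is a library and each bar a group mean. ATF4 and 20 others were lower with drug, and PPP1R15A and ATF3 higher.

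ATF4 binds DNA as a dimer with C/EBP family partners at a composite element that joins an ATF and a C/EBP part and can be written TGATGNAA, or TTNCATCA on the other strand. The RefSeq promoter table (GRCh38.p14, 250 bases before to 50 after a gene's start) held 21 of the 26 targets, and 5 of the 21 promoters (23.8%) had this composite element on either strand. Of all 35116 promoters of the table, 3.62% had it, and of the promoters of 10702 tested genes, 1.69% had it. Of all 21 genes with a promoter, 16 fell and 2 rose. Of the 5 with the element, 4 fell and 1, ATF3, rose. The stretches upstream of CHAC1 and ASNS, which fell most of these 5, and of ATF3, which rose, show the composite element in capitals, each written 5′ to 3′ along the strand of its gene.
ASNS, 68 bases before the start, chr7:97872453-97872492, minus strand: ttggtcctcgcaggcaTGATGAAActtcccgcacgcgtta
CHAC1, 209 bases before the start, chr15:40953246-40953285, plus strand: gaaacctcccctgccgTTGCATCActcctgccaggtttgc
ATF3, 191 bases before the start, chr1:212565200-212565239, plus strand: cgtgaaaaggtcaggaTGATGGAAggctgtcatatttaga
A match of letters is a description and does not show that a factor bound there.

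Enzymes that make serine and feed the folate cycle followed the same direction. Of 21 tested, 12 fell and 3 rose (median -0.23). Some of them, PHGDH and PSAT1 included, are also in the ATF4 list and were counted there. PHGDH, the first enzyme of serine synthesis, had 329, 301, 361 and 307 CPM in the controls and 110.1, 102, 95.2 and 105 CPM at 2.5 µM (-1.66 ± 0.057, adjusted p = 1.36e-21). The next enzymes of the chain, PSAT1 (-1.32 ± 0.042) and PSPH (-0.95 ± 0.063), fell as well. ALDH1L2, a mitochondrial folate enzyme, had 16.7, 18.7, 18.2 and 16.4 CPM and then 2.04, 3.02, 2.39 and 2.22 CPM (-2.85 ± 0.13). In contrast, cytosolic SHMT1 (-0.23) and MTHFD1 (-0.22) fell by less than mitochondrial SHMT2 (-0.67) and MTHFD2 (-0.78). The differences between these enzymes were not tested against each other.

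Amino acid carriers, of which SLC7A5 is also in the ATF4 list, fell in 15 of 21 cases and rose in 3 (median -0.57). SLC7A5, the light chain of the large neutral amino acid exchanger, had 2788, 2737, 3023 and 2986 CPM in the controls and 1106, 1072, 1014 and 1125 CPM with drug (-1.42 ± 0.046, adjusted p = 3.59e-23). Its heavy chain SLC3A2 fell by 1.11 on the log2 scale, and the glutamine carrier SLC1A5 by 1.37. SLC38A9, the lysosomal arginine sensor of mTORC1, was among the few that rose (0.62 ± 0.10).

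Enzymes that charge tRNAs in the cytosol fell in 15 of 20 cases, rose in 2 and had a median of -0.51. AARS1, the alanyl-tRNA synthetase, had 757, 746, 853 and 772 CPM in the controls and 292, 301, 263 and 301 CPM at 2.5 µM (-1.43 ± 0.052, adjusted p = 2.54e-21). GARS1 (-1.58 ± 0.044) and EPRS1 (-1.39 ± 0.045) fell as far. KARS1, the lysyl-tRNA synthetase, rose slightly (0.19 ± 0.044), and the count of higher members was 1 without replicate 4 at 2.5 µM. The values of AARS1, GARS1, EPRS1 and XPOT did not overlap between control and drug.

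Chaperones of the endoplasmic reticulum (ER) mostly fell. Of 23 tested genes of protein folding and the unfolded protein response, 18 fell, 1 rose and 4 did not pass the test (median -0.37). HSPA5 (BiP), the main ER chaperone, had 1168, 1154, 1245 and 1107 CPM in the controls and 411, 432, 409 and 413 CPM at 2.5 µM (-1.49 ± 0.056, adjusted p = 1.97e-19). HERPUD1, of ER-associated degradation, fell by 1.25 on the log2 scale and the disulfide isomerase PDIA4 by 0.84. XBP1, a transcription factor of the pathway, changed by -0.78 ± 0.051, and the gene that rose was ERN1, the sensor that splices XBP1 mRNA (0.53 ± 0.071).

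Many ER chaperone promoters carry the ER stress element, which reads CCAAT, 9 bases of any kind, then CCACG, or its reverse complement on the other strand. RefSeq promoters were found for 22 of the 23 genes, and 6 of them (27.3%) held the element. It was in 0.0769% of all 35116 promoters and in 14 of those of 10702 tested genes (0.131%). Of all 22 genes with a promoter, 17 fell and 1 rose. Of the 6 with the element, 5 fell and CANX did not pass the test. The sites of the 5 that fell are shown with the element in capitals, 5′ to 3′ along the strand of the gene (GRCh38.p14).
HSPA5, 66 bases before the start, chr9:125241375-125241425, minus strand: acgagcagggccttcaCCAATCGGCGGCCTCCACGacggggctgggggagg
HSP90B1, 194 bases before the start, chr12:103930200-103930250, plus strand: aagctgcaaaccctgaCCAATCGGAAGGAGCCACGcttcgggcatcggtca
CALR, 225 bases before the start, chr19:12938368-12938418, plus strand: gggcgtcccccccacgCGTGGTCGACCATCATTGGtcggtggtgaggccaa
CRELD2, 80 bases before the start, chr22:49918538-49918588, plus strand: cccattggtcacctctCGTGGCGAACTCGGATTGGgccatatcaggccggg
XBP1, 52 bases before the start, chr22:28800587-28800637, minus strand: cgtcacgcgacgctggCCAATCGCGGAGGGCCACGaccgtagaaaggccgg
HSP90B1 held another copy, 89 bases before its start. Their log2 fold changes were -1.49 for HSPA5, -0.51 for HSP90B1, -0.32 for CALR, -0.77 for CRELD2 and -0.78 for XBP1.

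Genes of cholesterol synthesis and uptake, which are switched on by SREBP2 when membranes lack sterol, fell in 20 of 25 cases and rose in 4 (median -0.53). INSIG1, which holds SREBP in the ER, had 53.7, 45.7, 47.5 and 36.4 CPM in the controls and 16.1, 18.1, 17.6 and 15.9 CPM with drug (-1.44 ± 0.094, adjusted p = 6.61e-14). SQLE, squalene epoxidase, fell by 1.22 on the log2 scale and DHCR7, a last-step reductase, by 1.58. TM7SF2, a sterol reductase, rose (1.13 ± 0.16). Fatty acid genes were less uniform, with 8 lower and 5 higher of 18. FASN, fatty acid synthase, had 505, 438, 514 and 478 CPM and then 157, 142, 141 and 156 CPM (-1.701 ± 0.052, adjusted p = 9.28e-24). SCD, the desaturase, fell by 1.27 and SREBF1, the regulator of both, by 0.87, while FADS2 rose (0.70 ± 0.062).

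Ribosomal protein mRNAs fell by little but almost all together: 30 of 35 were lower, 2 higher and 3 did not pass the test, with a median of -0.29. RPL5 had 452, 442, 456 and 436 CPM in the controls and 306, 317, 291 and 307 CPM at 2.5 µM (-0.55 ± 0.043, adjusted p = 6.86e-13). RPL12 (-0.64) and RPS3 (-0.54) fell alike, and RPL15 (0.26) rose. The count of higher members was 1 without control replicate 2 and without replicate 4 at 2.5 µM. Many of these genes have processed pseudogenes, and how reads that fit several places were counted is not given in the sources used here. Host genes of small nucleolar RNAs, many of whose RNAs start with the same pyrimidine-rich motif as ribosomal protein mRNAs, fell in 11 of 23 cases and rose in 2 (median -0.13). GAS5 (-0.35), SNHG29 (-0.49) and ZFAS1 (-0.55) were among those that fell. Ribosome biogenesis factors and RNA polymerase I subunits were near background in both directions, 10 higher and 12 lower of 31 (median -0.0079), with NPM1 (-0.63) and GNL3 (-0.63) lower and NOP2 (0.56) higher. MYC, a transcription factor of growth genes, fell from 398 ± 14.5 to 321 ± 7.95 CPM (-0.31 ± 0.049, adjusted p = 2.5e-06).

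Most replication genes that passed the test fell and most such mitosis genes rose. Of 35 DNA replication genes, 20 fell and 3 rose (median -0.19), and of 33 mitosis genes, 18 rose and 4 fell (median 0.25). Under scaling by library size 16 replication genes were lower and 7 higher, and 18 mitosis genes were higher and 3 lower. RRM2, a subunit of ribonucleotide reductase, had 342, 352, 346 and 339.8 CPM in the controls and 204, 209, 209.6 and 209 CPM at 2.5 µM (-0.73 ± 0.042, adjusted p = 3.17e-16). CDC45, part of the replicative helicase, fell by 0.68 on the log2 scale and the DNA ligase LIG1 by 0.71. PCNA, the sliding clamp, changed by -0.40, and MCM2, MCM3 and MCM7 of the helicase ring did not pass the test. MCM3 passed it, as higher, only under scaling by library size (adjusted p = 0.0335). AURKA, a spindle pole kinase, had 120.2, 115, 124 and 123 CPM in the controls and 194, 196, 194 and 198 CPM with drug (0.70 ± 0.044, adjusted p = 4.3e-15). PRC1, which bundles the microtubules of the central spindle, rose by 0.79 ± 0.042 and UBE2C, a ubiquitin enzyme of mitotic exit, by 0.55 ± 0.049. The proliferation marker MKI67 changed by 0.12 ± 0.044, a call lost without control replicate 3 (0.072, adjusted p = 0.162) and without replicate 1 at 2.5 µM (0.10, adjusted p = 0.0726).

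**Figure D5:**
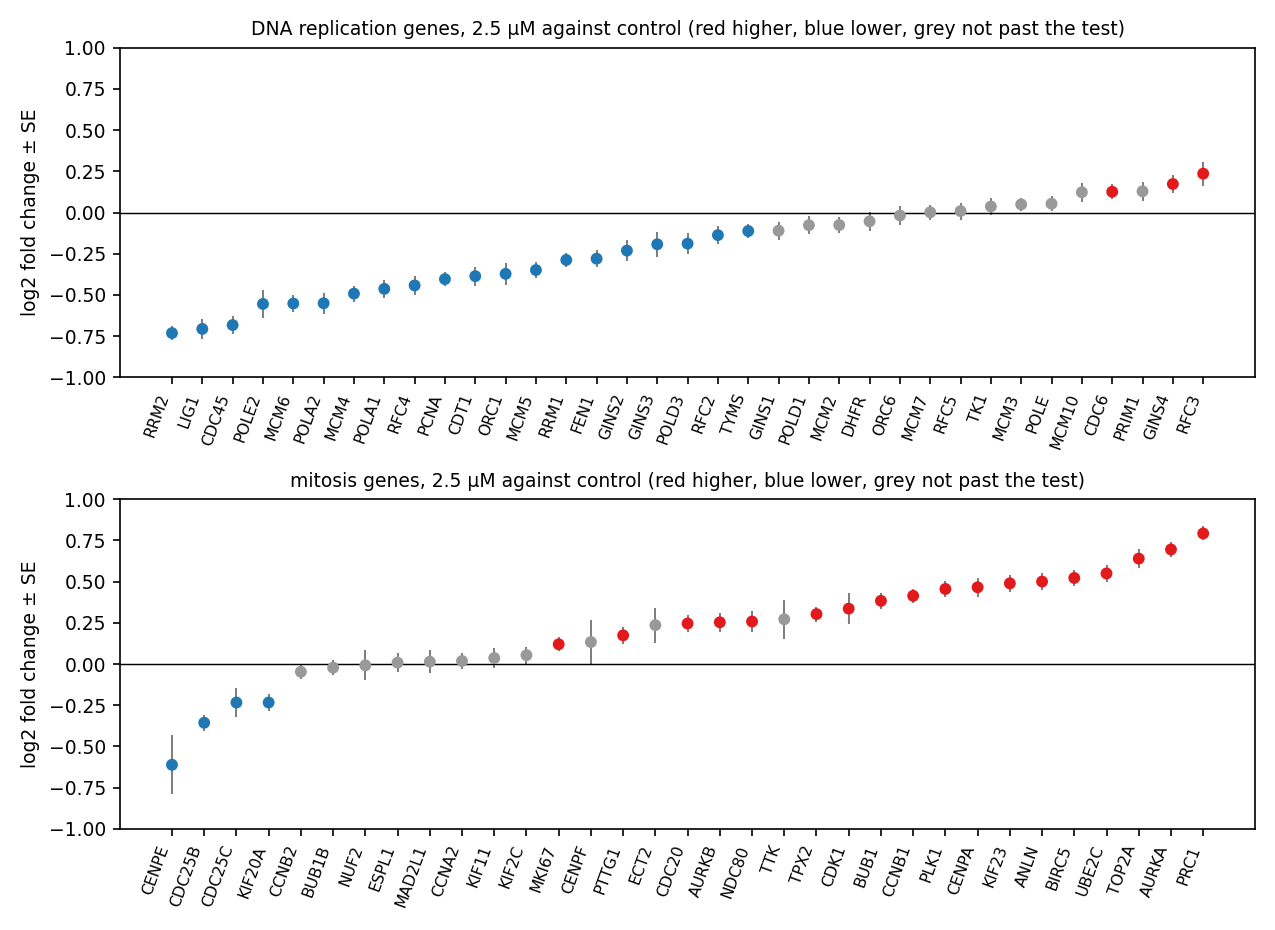
Log2 fold change ± SE at 2.5 µM acriflavine against control for the 35 DNA replication genes (upper panel) and the 33 mitosis genes (lower panel), each panel ordered by value. Red points passed the test higher, blue points lower and grey points did not pass it. Most replication genes lie under 0 and most mitosis genes above it, from -0.73 for RRM2 to 0.79 for PRC1.

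Cell cycle brakes and cyclins were mixed, 10 higher and 5 lower of 20. CDKN1A (p21), the p53-driven CDK inhibitor, had 228, 208, 231 and 178 CPM in the controls and 338, 342, 340.4 and 354 CPM at 2.5 µM (0.70 ± 0.055, adjusted p = 2.71e-12). CDKN1C (p57) fell by 1.59 and the S phase cyclin CCNE2 by 1.78 on the log2 scale, while cyclin D1 (CCND1) rose by 0.50 ± 0.047. Of 34 listed replication-dependent histone genes, whose mRNAs mostly lack a poly-A tail, 17 were matched by symbol and 11 were tested. Of these 11, 8 rose and 1 fell (median 1.03), and the unmatched members were not scored. H2BC5 (1.03 ± 0.093), H2AC6 (1.03 ± 0.071) and H1-2 (0.65 ± 0.06) rose. Histone copies are near-identical, which makes the value of each uncertain.

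Targets of p53 rose in 19 of 31 cases and fell in 6 (median 0.28). DDB2, a damage sensor of nucleotide excision repair, rose from 60.6 ± 3.62 to 132 ± 6.61 CPM (1.12 ± 0.053, adjusted p = 1.46e-18). AEN, a nuclease of apoptosis, rose by 0.85 ± 0.053 and the death receptor TNFRSF10B by 0.39 ± 0.043. MDM2, which degrades p53, stood at 78.3, 82.01, 67.1 and 72.5 CPM in the controls and 81.6, 93.1, 93.9 and 75.1 CPM with drug (0.19 ± 0.065, adjusted p = 0.0114). Its groups overlapped, and the call was lost without control replicate 3 (adjusted p = 0.11) and without replicate 2 (0.0612) or 3 (0.0593) at 2.5 µM. SESN2 (-0.63) and GADD45A (-0.39), which the stress response also drives, fell. DNA repair genes stayed near the background, 11 higher and 12 lower of 36 (median -0.073), with PARP1 (-0.43) and FANCA (-0.61) lower. Topoisomerases, which acridine drugs can poison, split 3 higher to 3 lower of 10: TOP2A, also a mitosis gene, changed by 0.64, TOP1 by 0.33, TOP3B by 0.73 and TOP2B by -0.51. Apoptosis regulators rose in 12 and fell in 7 of 32 cases (median 0.012), with the survival factor BCL2L1 higher (0.73 ± 0.051) and the caspase inhibitor XIAP lower (-0.67 ± 0.082).

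Because acriflavine is known as a HIF-1 inhibitor, the HIF genes were examined next. HIF1A had 412, 374, 338 and 305 CPM in the controls and 299, 337, 312 and 279 CPM at 2.5 µM, which overlapped and did not pass the test (-0.22 ± 0.10, adjusted p = 0.0779). It passed the test without control replicate 4 (adjusted p = 0.014), without replicate 2 at 2.5 µM (0.0456) and without replicate 3 at 5 µM (0.0151). EPAS1 (HIF-2 alpha) did not pass the test (-0.051 ± 0.045), and ARNT, the shared partner, fell slightly (-0.26 ± 0.053). Of the 8 tested subunits and oxygen-sensing hydroxylases, 3 rose and 1 fell, with EGLN2 (0.57) and EGLN1 (0.25) higher. The lower count became 2 in each fit in which HIF1A passed. HIF targets outside glycolysis split 13 lower to 9 higher of 28 (median -0.062). VEGFA, the angiogenic growth factor, fell from 132 ± 10.8 to 102 ± 5.75 CPM (-0.37 ± 0.059, adjusted p = 1.9e-06). LOX, a collagen cross-linking enzyme, fell by 1.21 and CA12, a carbonic anhydrase, by 1.75 on the log2 scale, whereas NDRG1 (1.28) and CXCR4 (1.55) rose. The RefSeq promoters of 12 of 22 HIF targets (54.5%) held the core letters ACGTG on either strand. So did 21.4% of all promoters and 26.8% of those of tested genes. Of these 12 targets, 7 fell and 3 rose, and of all 22, 11 fell and 6 rose. Glycolysis leaned lower, 13 of 22 falling and 3 rising (median -0.17). ALDOC (-1.301 ± 0.079), the lactate carrier SLC16A3 (-1.51 ± 0.046) and PDK1 (-1.47 ± 0.098), which holds pyruvate out of mitochondria, fell most, while LDHA changed by -0.16 and the glucose carrier SLC2A1 rose (0.27).

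For the EMT question in the title, junction and mesenchymal genes were read beside each other. CDH1 (E-cadherin), which holds epithelial cells together, was barely expressed: 0.469, 0.440, 0.358 and 0.169 CPM in the controls and 0.606, 0.844, 1.16 and 1.55 CPM at 2.5 µM (1.502 ± 0.37, adjusted p = 0.000795). The CDH1 values rest on 18 counts in the controls and 58 at 2.5 µM. CDH1 averaged 4.86 CPM at 5 µM, so the low-value filter can have kept it for that dose alone. CDH2 (N-cadherin) rose slightly, from 249, 257, 257 and 267 CPM to 304, 320.2, 314 and 306 CPM (0.27 ± 0.042, adjusted p = 8.59e-07). Of 26 tested junction and keratin genes, 11 rose and 6 fell (median 0.10). PKP2, a desmosome protein, rose by 1.001 ± 0.044 and the protease inhibitor SPINT1 by 1.101 ± 0.074. KRT19, an epithelial keratin, fell from 203 ± 20.04 to 89.6 ± 5.08 CPM (-1.18 ± 0.058).

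Mesenchymal genes and EMT regulators split 8 lower to 4 higher of 20 (median 0.0074), and without control replicate 3 the count of higher members was 7. VIM (0.093 ± 0.044, adjusted p = 0.0675), ZEB1 (0.077 ± 0.094) and TWIST1 (0.078 ± 0.085) did not pass the test. VIM passed it without control replicate 3 (adjusted p = 0.0228), under scaling by library size (0.00226), with limma-voom (0.0261) and without the low count filter (0.0416). SNAI2, a repressor of E-cadherin, rose from 19.3 ± 2.02 to 26.8 ± 1.36 CPM (0.47 ± 0.088, adjusted p = 2.65e-05), and SNAI1 fell (-0.99 ± 0.16). ACTA2, smooth muscle actin, had 8.36, 8.36, 9.93 and 7.19 CPM in the controls and 46.7, 45.8, 43.6 and 44.6 CPM at 2.5 µM (2.42 ± 0.08, adjusted p = 6.5e-23). FAP, a fibroblast protease, fell by 0.61 on the log2 scale, and DCN and LUM of the fibroblast markers fell by 0.30 and 0.38. PDGFRB, another fibroblast marker, rose from 4.51 ± 0.575 to 5.72 ± 0.780 CPM (0.34 ± 0.14, adjusted p = 0.0297), and COL1A1 did not pass the test (22.6 ± 3.05 and 22.5 ± 2.302 CPM). The call of PDGFRB was lost with DESeq2 (adjusted p = 0.0536), without control replicate 4 (0.111) and without replicate 3 (0.0621) or 4 (0.152) at 2.5 µM. The part of the fibroblast markers in these values was not tested.

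TGF-beta genes, which drive EMT in many epithelia, were higher in 13 and lower in 8 of 25 cases (median 0.50). TGFB1, the ligand, fell from 125 ± 11.05 to 90.5 ± 4.88 CPM (-0.46 ± 0.058, adjusted p = 2.33e-08) and TGFB2 rose (0.80 ± 0.11). SMAD6, an inhibitory SMAD, rose by 1.18 ± 0.069, and SKI, a repressor of the pathway, fell by 1.47. The matricellular targets CCN1 (1.399) and CCN2 (1.23) rose. In the ID family of differentiation inhibitors, ID2 (1.76) rose while ID1 (-0.71) and ID3 (-0.57) fell. WNT targets and LGR receptors were higher in 7 and lower in 2 of 12 cases, with NKD2 (0.98) and BMP4 (2.49) among the rises. The lower count was 1 without replicate 1 of the controls and without replicate 1 or 3 at 2.5 µM.

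Lysosomal and autophagy genes leaned higher, 17 rising and 5 falling of 27 (median 0.20). GABARAPL1, which coats autophagosomes, rose from 124 ± 8.06 to 227 ± 4.06 CPM (0.87 ± 0.049, adjusted p = 2.04e-16) and BECN1, of autophagosome formation, by 0.83, while WIPI1 fell (-1.55). Interferon-stimulated genes rose in 11 of 18 cases and fell in 1 (median 0.36). IFIT2, an RNA-binding antiviral protein, had 9.06, 9.82, 10.7 and 11.6 CPM in the controls and 27.3, 32.1, 28.6 and 24.5 CPM at 2.5 µM (1.45 ± 0.095, adjusted p = 7.89e-15). Its neighbour IFIT3 (1.47) and OASL (1.89) rose, ISG15 and STAT2 did not pass the test, and IFI44L fell (-1.06). NF-kB genes split 6 lower to 4 higher of 17 (median -0.13). ICAM1, an adhesion molecule, rose between low levels, from 0.147 ± 0.126 to 1.48 ± 0.0692 CPM (3.303 ± 0.43). NFKB1 (-1.33 ± 0.073) and IL1B (-2.09 ± 0.23) fell.

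Antioxidant genes under NRF2 fell in 13 and rose in 4 of 23 cases (median -0.33). HMOX1, heme oxygenase, fell from 60.8 ± 6.37 to 29.9 ± 2.11 CPM (-1.02 ± 0.07, adjusted p = 2.47e-14) and GCLC, of glutathione synthesis, by 0.65 on the log2 scale, yet NQO1 rose (0.26). Heat shock genes and chaperonins were lower in 9 and higher in 4 of 22 cases (median -0.097). CHORDC1, an HSP90 partner, fell by 1.45 and HSPA1B, an inducible HSP70, by 0.68, the latter a near-copy of HSPA1A, so the value of each is uncertain. The heat shock element GAANNTTC was in 7 of 21 RefSeq promoters of this list (33.3%) and in 6.77% of all promoters (4.61% of those of tested genes). Of the 7 genes with it, 6 fell, and of all 21, 9 fell and 3 rose. Genes of the aryl hydrocarbon receptor, which binds flat aromatic molecules, were higher in 5 and lower in 1 of 8 cases. AHR itself (0.58 ± 0.073) and its repressor AHRR (1.302 ± 0.087) rose. The lower count was 2 without control replicate 3.

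Immediate early genes and MAPK feedback genes rose in 11 and fell in 6 of 24 cases (median 0.086), with DUSP4 (1.26), IER3 (0.995) and IER5 (0.92) higher. Factors of transcription elongation rose in 11 and fell in 1 of 22 cases, mostly by little (median 0.11). CDK9, the kinase that releases paused RNA polymerase II, rose by 0.71 ± 0.064. Its inhibitor HEXIM2 rose by 1.29 ± 0.078, and HEXIM1 did not pass the test (-0.11 ± 0.058). Without control replicate 3 HEXIM1 passed it (-0.17, adjusted p = 0.0154), which makes the lower count 2.

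Values at 5 µM, from the same fit and with the same controls, place the low dose. MT-CO2 averaged 3586 ± 99.00 CPM in the controls, 757 ± 75.8 CPM at 2.5 µM and 1315 ± 43.7 CPM at 5 µM, and the 2 doses differed (5 µM minus 2.5 µM 0.80, adjusted p = 1.02e-14). Mitochondrial mRNAs as a share of counts were 2.44%, 0.653% and 1.06% in these groups, so the low dose had the smaller summed share. MT-ND6 went the other way, with 29.6 ± 2.92, 8.43 ± 0.491 and 4.04 ± 0.714 CPM (5 µM minus 2.5 µM -1.08, adjusted p = 7.72e-09). ATF4 averaged 408 ± 10.4, 176 ± 10.5 and 79.3 ± 5.52 CPM (5 µM minus 2.5 µM -1.16, adjusted p = 3.54e-19). XPOT averaged 354 ± 11.5, 36.02 ± 1.18 and 14.3 ± 1.62 CPM (-1.34, adjusted p = 1.94e-17). CDKN1A averaged 211 ± 24.4, 343 ± 7.01 and 664 ± 17.8 CPM (0.95, adjusted p = 9.22e-16). For CDH2, the values were 257 ± 7.303, 311 ± 7.43 and 248 ± 3.95 CPM (-0.33, adjusted p = 1.77e-08), and for SNAI2 19.3 ± 2.02, 26.8 ± 1.36 and 17.7 ± 2.26 CPM (-0.60, adjusted p = 3.2e-07). ACTA2 moved further from control, averaging 8.46, 45.2 and 139 CPM (1.62, adjusted p = 1.08e-21). CDH1 did too, with 0.359, 1.04 and 4.86 CPM (2.19, adjusted p = 4.29e-11). KRT19 fell further, from 89.6 CPM at 2.5 µM to 51.4 CPM at 5 µM (-0.81, adjusted p = 4.44e-13). PKP2 moved back in part, from 270 to 228 CPM (-0.24, adjusted p = 7.88e-06). VIM, which did not pass the test at 2.5 µM, fell from 2018 to 1282 CPM (-0.66, adjusted p = 1.02e-14). CCND1 averaged 161 ± 8.901, 227 ± 5.95 and 155 ± 6.35 CPM (-0.56, adjusted p = 2.46e-12), AURKA 121 ± 3.99, 195 ± 2.22 and 172 ± 5.13 CPM (-0.19, adjusted p = 0.000339).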

How the data were processed

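Poly-A RNA of 12 samples of cultured cells was sequenced with a stranded TruSeq kit on a NextSeq500, per the labels' protocols. The authors deposited a table of raw counts per Ensembl gene. The submitters' processing notes name GRCh37, STAR 2.4.1d, featureCounts 1.4.6 and other tools, without their roles. For the annotation release, the strand setting and the handling of reads with several matches, nothing is given in the sources used here. Of 63152 genes in the table, 32171 had no read at all. Symbols and gene classes came from GENCODE 29 by Ensembl identifier and covered 51989 genes with 99.3% of the counts. That annotation is of another build, so no gene coordinates are given. Promoter sequences are RefSeq's (GRCh38.p14), matched by symbol.

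Genes were filtered with filterByExpr, scaled by TMM and tested with edgeR 4.0.16 (glmQLFit, robust, and glmQLFTest) in R 4.3.3. The 12 libraries entered 1 fit of 3 groups with 9 residual degrees of freedom, with Benjamini-Hochberg adjustment over 16839 genes and a threshold of 0.05. CPM values use the TMM-scaled library size, given as mean ± SD or per library, with controls and 2.5 µM libraries each in the order of replicates 1 to 4. SE is the absolute log2 fold change divided by the square root of F. The biological coefficient of variation was 5.43%. Zero counts were set to a floor of 3 counts over a group, 0.0582 CPM in the controls. Intervals cover counting error only, and the libraries carried no molecular identifiers.

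The 49 gene lists (1124 entries, 1103 matched to 1055 distinct genes) and the tests were chosen with earlier results of these data known. Lists are described by counts and medians with no test of their own. Named were the 10 largest rises and 10 largest falls (mean log2 CPM of at least 1, no overlap), 26 preset genes, the 3 members with the smallest p of each list, and the 3 genes with 0 control counts and most counts at 2.5 µM. Others were chosen after their values were seen, and some genes are not reported here. Alternatives were other scalings (RLE, upper quartile, library size), other filters, DESeq2 1.42.0, limma-voom (limma 3.58.1), the 8 libraries alone, a replicate block and leaving out each library.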

Additional observations from a re-analysis of the deposited data

Results flagged for a closer look

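In groups of 4, a library was looked for whose gap to its nearest neighbour passes Dixon's 95% critical value for the share of the group's range. Chance alone would give about 1 in 20 groups, 22.7 of the 454 examined, and 15 were found. In the controls, replicate 4 stood apart in CGN (1.95 CPM against 0.806 to 0.895 in the others) and DDB2 (55.2 CPM against 61.9 to 62.9). Control replicate 3 stood apart in RPL12 (164 CPM against 142 to 143) and SQLE (48.2 CPM against 52.4 to 53.1). Control replicate 1 held the only control counts of MMP14 (0.0781 CPM) and of PTPRC (0.156 CPM), which were at 0 in the others.

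At 2.5 µM, replicate 3 stood apart in CA12 (1.23 CPM), HSPA1A (52.9 CPM), ISG15 (11.7 CPM against at least 16.6) and PTPRC (0.539 CPM). Replicate 1 stood apart in CCND1 (236 CPM), HNF4A (0.833 CPM against 0.269 to 0.308) and RRM2 (204 CPM against 209 to 210), replicate 2 in SNAI1 (2.53 CPM) and replicate 4 in KPNA2 (430 CPM). The calls of CGN, CA12, CCND1, DDB2, KPNA2, RPL12, RRM2, SNAI1 and SQLE held when each library was left out in turn.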

How the results depend on the processing

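The overall counts stayed within 1.5 times their main values under every alternative run, and between 9382 and 10087 genes passed the test. Those changed at least 2-fold numbered from 1294, with the 8 libraries alone, to 2227, without the low count filter. Scaling by library size gave 5760 genes higher and 4187 lower, 57.9% higher against 51.9%, and moved the median log2 fold change of all genes from 0.019 to 0.064. Without control replicate 3 more genes were lower (4955) than higher (4727). DESeq2 called 9382 genes, of which 9343 were among the 9957. Same-numbered libraries did not visibly deviate together (correlations -0.035 to 0.0745 for 3 of 4 numbers and -0.1301 for 1). Libraries with different numbers gave -0.132 to 0.1704. No pairing by number was seen, but values this spread cannot exclude a weak one. With a replicate block 9828 genes passed, 9768 of them shared.

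Among the list counts, 40 of 2058 moved by more than 1.5 times, all between 0 and 7 members. Under library size scaling, 7 DNA replication genes were higher, 1 WNT gene and 3 nuclear transport receptors lower, and 2 hepatocyte transcription factor or enzyme genes higher. Without the low count filter, 2 histones, 2 interferon-stimulated genes and 2 hepatocyte secreted proteins were lower and 2 fibroblast markers higher. DESeq2 had 0 fibroblast markers higher. With limma-voom 2 HIF subunit genes were lower and 2 hepatocyte transcription factor or enzyme genes higher. With the 8 libraries alone, 2 HIF subunit genes and 1 WNT gene were lower, and 1 hepatocyte secreted protein, 0 endothelial and 0 blood cell markers higher. With the replicate block 2 HIF subunit genes were lower.

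Leaving out each library gave 1 to 2 lower for HIF subunits, WNT, AhR and elongation genes, and for higher members 1 to 3 ribosomal proteins, 1 to 2 cytosolic tRNA synthetases, 4 to 7 mesenchymal genes, 1 to 2 hepatocyte transcription factors or enzymes, 0 to 2 fibroblast, 0 to 1 endothelial and 1 to 2 blood cell markers. No named gene that passed the test reversed its direction under these alternatives. HIF1A passed the test with limma-voom (adjusted p = 0.0122), with the 8 libraries alone (0.0437) and with the replicate block (0.00552). The causes were not tested. Genes with few counts are limited by depth.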

Other observations

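Gene groups outside the main comparisons moved by smaller counts. Circadian clock genes fell in 7 and rose in 3 of 18 cases (median log2 fold change -0.13). CRY1 (0.999 ± 0.057) and PER1 (0.60 ± 0.057), repressors of the clock loop, rose, and BHLHE40 fell (-0.75 ± 0.077). Metallothioneins, small proteins that bind zinc and copper, and zinc carriers split 4 lower to 3 higher of 9. MT1F (-1.94 ± 0.24) and MT1X (-1.51 ± 0.16) fell and the zinc carrier SLC39A1 rose (0.67 ± 0.043), with the metallothionein copies so alike that the value of each is uncertain. Nuclear transport receptors rose in 13 and fell in 6 of 28 cases (median 0.063), with XPOT (-3.29) changed most and the importin alphas KPNA2 (0.70) and KPNA6 (0.47) higher. SR splicing factors and CLK kinases split 7 to 7 of 18, with SRSF5 (0.33) and SRSF9 (0.28) higher and TRA2A (-0.65) lower. The MYC and MAX network split 4 to 4 of 12, and MYCL, a relative of MYC, rose from 0.582 ± 0.173 to 2.44 ± 0.455 CPM (2.05 ± 0.29, adjusted p = 2.59e-07).

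Lists of liver and other cell types rested on few tested members. Of 30 hepatocyte secreted proteins, 5 were tested, 2 higher and 1 lower. APOE, a lipid carrier, rose from 0.636 ± 0.246 to 1.29 ± 0.361 CPM (1.02 ± 0.31), and its groups overlapped. C3, a complement protein, fell (-0.17 ± 0.043), and transferrin (TF) went from 0 to 8 counts summed over 4 libraries, at least 2.46-fold higher. Of hepatocyte transcription factors and enzymes, 7 were tested, 1 higher and 3 lower. In the urea cycle, CPS1 fell from 2185 ± 44.98 to 1778 ± 12.6 CPM (-0.30 ± 0.039), ASS1 by 0.60 and ASL by 1.26 on the log2 scale, whereas the gluconeogenic enzyme FBP1 rose (1.83 ± 0.21). Cholangiocyte markers split 4 higher to 2 lower of 9, with SOX9, a duct lineage factor, higher (1.81 ± 0.23) and SLC4A2 higher (0.45 ± 0.05). Fibroblast markers split 1 to 3 of 5, endothelial markers 1 to 1 of 3 (TEK higher, 1.78, and ENG lower, -0.37; without replicate 1 at 2.5 µM TEK did not pass the test, with 1.18 and an adjusted p of 0.0911), and blood cell markers 1 to 0 of 2. The blood cell gene that rose was PTPRC, with 2 counts in the controls and 19 at 2.5 µM, a ratio of 8.76 (95% counting interval 2.11 to 77.6). TF, TEK and PTPRC averaged 5.52, 6.24 and 2.27 CPM at 5 µM, so the low-value filter can have kept them for that dose alone. With the 8 libraries alone, 1 hepatocyte secreted protein, 0 endothelial and 0 blood cell markers were higher. Counts of this size moved with single libraries: 0 to 2 fibroblast markers and 1 to 2 blood cell markers were higher when each library was left out in turn, with 0 fibroblast markers without replicate 3 at 2.5 µM and 2 blood cell markers without control replicate 4. Without control replicate 4 the hepatocyte transcription factors and enzymes also had 2 higher members.

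Other promoter letters were searched on both strands of the RefSeq table. CACGTG was in 10 of 26 promoters of ribosome biogenesis genes (38.5%) and in 7.26% of all promoters (10.1% of those of tested genes). Of these 10 genes, 5 were higher and 2 lower, and of all 26, 8 were higher and 10 lower. CCAAT was in 9 of 10 histone promoters (90%) and in 34.6% of all (36.7% for tested genes). Of these 9 genes, 7 were higher and 1 lower, and of all 10, 8 were higher and 1 lower. TGACNNNGC was in 5 of 18 NRF2 gene promoters (27.8%) and in 13.3% of all (15.4% for tested genes). TTGCGTG was in 0 of 6 AhR gene promoters and in 1.16% of all (1.65% for tested genes), which says only that these letters are not in those windows.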
